A study of Homo sapiens with 6 samples.

Results

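The 48 genes described here act in the G2 phase of the cell cycle and in mitosis. They were taken by symbol from a list of cyclins, mitotic kinases, kinetochore and spindle proteins, cytokinesis factors and chromosome proteins. All 48 were found among the 32575 genes in the deposited tables, and all 48 passed the filter on low values. RNA was sequenced from SH-SY5Y cells, an established human neuroblastoma line, in 3 groups of 2 libraries each. Cells of the CSA knockdown carried a lentiviral short hairpin RNA against CSA, the product of ERCC8. Those of the CSB knockdown carried a hairpin against CSB, the product of ERCC6, and those of the control carried a control hairpin. All 3 groups, the control included, underwent transduction and puromycin selection and were kept for 2 to 3 weeks before Trizol lysis. The labels' genotype field reads CSAmut, CSBmut and WT, but the growth protocol describes hairpins, so the groups are called knockdowns and control. CSA is a substrate receptor of a ubiquitin ligase and CSB a chromatin remodeller, both known from transcription-coupled DNA repair, and the study asked which transcripts depend on each. No source used here gives the hairpin sequences or says that libraries of one group came from separate cultures. Every p-value thus reflects variation among these 6 libraries alone, which may be technical.

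Mitosis begins when CDK1, bound to A and B cyclins, is switched on by CDC25 phosphatases and supported by Polo and Aurora kinases. Kinetochores and the spindle checkpoint then restrain the anaphase-promoting complex until chromosomes are attached, and the central spindle guides the cut between the daughter cells. Many of these genes are silenced outside the dividing state by the DREAM complex and switched on late in the cycle by MYBL2 with the MuvB core and by FOXM1. They are reached through a short promoter element, the cell cycle genes homology region (CHR), often beside CCAAT boxes bound by NF-Y.

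The libraries held 19368272 to 26758162 gene-assigned reads, and values are given as scaled counts, which are reads divided by one size factor per library. Each hairpin lowered its target. ERCC8 stood at 61.8 and 57.2 scaled counts in the CSA knockdown, 186 and 215 in the CSB knockdown, and 219 and 217 in control. ERCC6 stood at 258 and 302 scaled counts in the CSB knockdown, whereas the CSA knockdown had 618 and 611 and control 615 and 593. Of 13 noradrenergic neuroblastoma markers, 12 reached 10 scaled counts in every library, and the remaining one, TH, lay between 2.86 and 20.3. Their sum was 156722 to 164017 scaled counts in the CSA knockdown, 130889 to 132243 in the CSB knockdown and 138129 to 142315 in control. CHGA, a protein of secretory granules, had 22906 and 25867 scaled counts in the CSA knockdown, 3566 and 3681 in the CSB knockdown, and 15330 and 14469 in control. SOX10, CD3E, CD68, KRT5 and PECAM1, defining markers of Schwann, blood, epithelial and endothelial cells, were at 0 in all 6 libraries. HBB had 373 scaled counts in control replicate 2 and 0 in the other 5 libraries. Genes also used as fibroblast markers were all detected, 8 of 8, and none of them was at 0. Their sum was 9385 to 9774 scaled counts in the CSA knockdown, 16778 to 17561 in the CSB knockdown and 13973 to 14268 in control. Both sums thus moved with the groups, in opposite orders, but single markers did not all follow their sum. HAND2, DBH, DDC, CHGA, CHGB, STMN2 and SYP were highest in the CSA knockdown, whereas PHOX2A, GATA2, GATA3 and ISL1 were highest in the CSB knockdown. COL1A1, COL1A2, DCN, LUM and PDGFRB kept the order of the fibroblast sum. COL3A1, the fibroblast marker with the highest counts, was lowest in the CSA knockdown, at 4201 and 3819 scaled counts. It had 7598 and 8365 in the CSB knockdown and 7693 and 7483 in control, which overlapped. PDGFRA was above control in both knockdowns, and THY1 was lowest in the CSB knockdown. The part of either sum in the results below was not tested. The mitochondrial share of the scaled counts was 5.73 to 6.51%.

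In the CSA knockdown, transcripts of the mitotic machinery were lower than in control in every role represented. Of the 48 genes, 45 fell, 0 rose and 3 did not pass the test, which was limma's moderated test with a Benjamini-Hochberg adjusted p below 0.05. The 3 were CDC25B, CDC25C and KIF23. All 48 log2 fold changes were negative, and both CSA knockdown libraries lay below both control libraries for all 48 genes. The median log2 fold change was -0.53, with an interquartile range of -0.65 to -0.40, and the values ran from -1.13 for BIRC5 to -0.11 for CDC25B. The median gene stood at 69.2% of its control level. Among all 28388 genes tested, 10.4% were called lower and 8.37% higher, and their median log2 fold change was 0.0048. Among the 10141 tested genes with a mean of at least 250 scaled counts, a level that all 48 genes reached, 21.8% were called lower and 17.7% higher. Both knockdown libraries lay below both controls for 27.1% of all tested genes and above both for 26.4%. In bulk RNA, fewer dividing cells and less of each transcript per cell cannot be told apart. The fibroblast marker sum moved with this difference, and its part in it was not tested.

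These 45 calls were made under each of 7 other scalings or count models. Fits that each left out 1 library called 33 to 41 genes lower and 0 higher, with 33 when control replicate 1 was left out, and 32 genes were called in all 6 such fits. The 13 not called in all of them were CCNA2, CCNB2, CKS2, TTK, BUB1, BUB1B, INCENP, CENPA, SPC25, HMMR, PRC1, ANLN and NCAPG. Their highest limma adjusted p in such a fit ran from 0.052 for BUB1B, without control replicate 1, to 0.32 for CKS2, which was called in none of the 6. The libraries of one group lay close together for these genes, with a median gap on the log2 scale of 0.069 in the CSA knockdown, 0.061 in the CSB knockdown and 0.040 in control.

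In the CSB knockdown the 48 genes moved in both directions. Against control, 13 fell, 6 rose and 29 did not pass. Those that fell were CCNB1, CDC25B, AURKB, MAD2L1, PTTG1, NUF2, HMMR, DLGAP5, PRC1, RACGAP1, ECT2, SMC4 and NCAPG. Those that rose were PLK1, UBE2C, KIF20A, ANLN, TOP2A and NCAPD2. The median log2 fold change was -0.01, with an interquartile range of -0.20 to 0.13, and the values ran from -0.79 for RACGAP1 to 0.42 for NCAPD2. Both CSB knockdown libraries lay below both controls for 20 genes and above both for 20, and the groups overlapped for 8. Among all genes tested, 8.86% were called lower and 14.8% higher, with a median log2 fold change of 0.097. Among those with a mean of at least 250 scaled counts, 20.0% were called lower and 29.6% higher. The groups were apart downwards for 22.2% of all tested genes and upwards for 36.5%. The mitotic genes, with 27.1% lower and 12.5% higher, thus lay near the background of abundant genes for falls and under it for rises.

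The CSB counts depend on how the libraries are scaled and on single libraries. Of the other scalings or count models, 6 called 18 genes lower and 4 higher, and edgeR with upper-quartile scaling called 18 lower and 6 higher. Over all genes the higher share of the calls was 62.5% with the deposited scaling, 50.1% in edgeR with TMM and 43.3% in DESeq2. CCNA2, BUB1, BIRC5, SPC25 and SMC2 were called lower under all 7 of these although not with the deposited scaling. The rise of UBE2C was called under 0 of the 7 and that of ANLN under 1. Uncalled values above 0 shrank too, since those of FOXM1, CDCA8, BUB3 and CDC20 ran as low as 0.037, 0.051, 0.041 and 0.038 under the 7. Without control replicate 1 the count was 5 lower and 3 higher, and without control replicate 2 it was 4 lower and 2 higher. Leaving out either CSB knockdown library gave 4 lower and 1 higher. RACGAP1, NCAPG and NCAPD2 were called in all 6 fits with a library left out.

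Set directly against each other, the knockdowns differed for most of these genes. In the CSB knockdown relative to the CSA knockdown, 41 genes were higher, 2 were lower and 5 did not pass. The 2 were CDC25B and RACGAP1, and the 5 were MAD2L1, NUF2, HMMR, PRC1 and NCAPG. The median log2 difference was 0.53, with an interquartile range of 0.28 to 0.71. Both CSB knockdown libraries lay above both CSA knockdown libraries for 42 genes and below both for 3. Of all tested genes, 18.1% were called higher and 11.3% lower in this comparison, and of those with a mean of at least 250 scaled counts 33.2% and 23.1%. The libraries were apart upwards for 36.5% of all tested genes and downwards for 23.7%. Other scalings and count models gave 34 to 40 higher and 2 to 4 lower. CCNB1 was called under 0 of the 7, CKS2, CENPA, SPC25 and KIF23 under some, and AURKB and SMC2 under all but DESeq2. Leaving out 1 library gave 27 to 37 higher and 0 to 3 lower. The lowest counts came without CSB knockdown replicate 1, with 27 higher and 1 lower, and without replicate 2 of that group, with 29 higher and 0 lower.

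**Figure D1:**
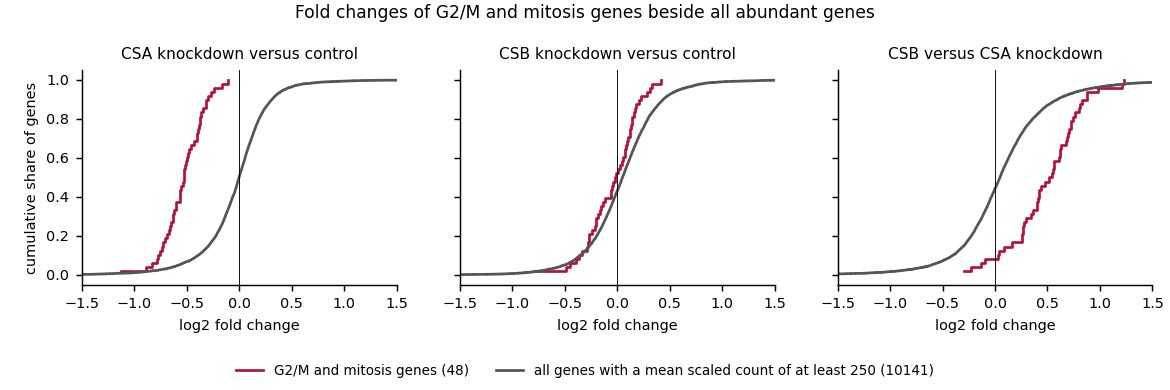
Cumulative share of genes (vertical axis, 0 to 1) at or below each log2 fold change (horizontal axis) for the 48 G2/M and mitosis genes (red) and for all 10141 genes averaging at least 250 scaled counts (grey), in 3 comparisons. The red line lies wholly left of 0 for the CSA knockdown, where its median is -0.53, lies close to the grey line for the CSB knockdown, where its median is -0.01, and lies right of it for CSB against CSA, where its median is 0.53.

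Summed over the 48 genes, the mitotic transcripts took 0.407 and 0.388% of the scaled counts in the CSA knockdown, 0.563 and 0.571% in the CSB knockdown, and 0.592 and 0.587% in control. The CSA knockdown libraries lay lowest and the CSB knockdown libraries just under the control libraries. Both comparisons with control use the same 2 control libraries, so their values are given side by side below and were not correlated. Per kilobase of gene length, control levels ran from 89.7 scaled counts for CDC25C to 2459 for CKS2, and UBE2C at 2129 and TOP2A at 1993 came next below CKS2.

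**Figure D2:**
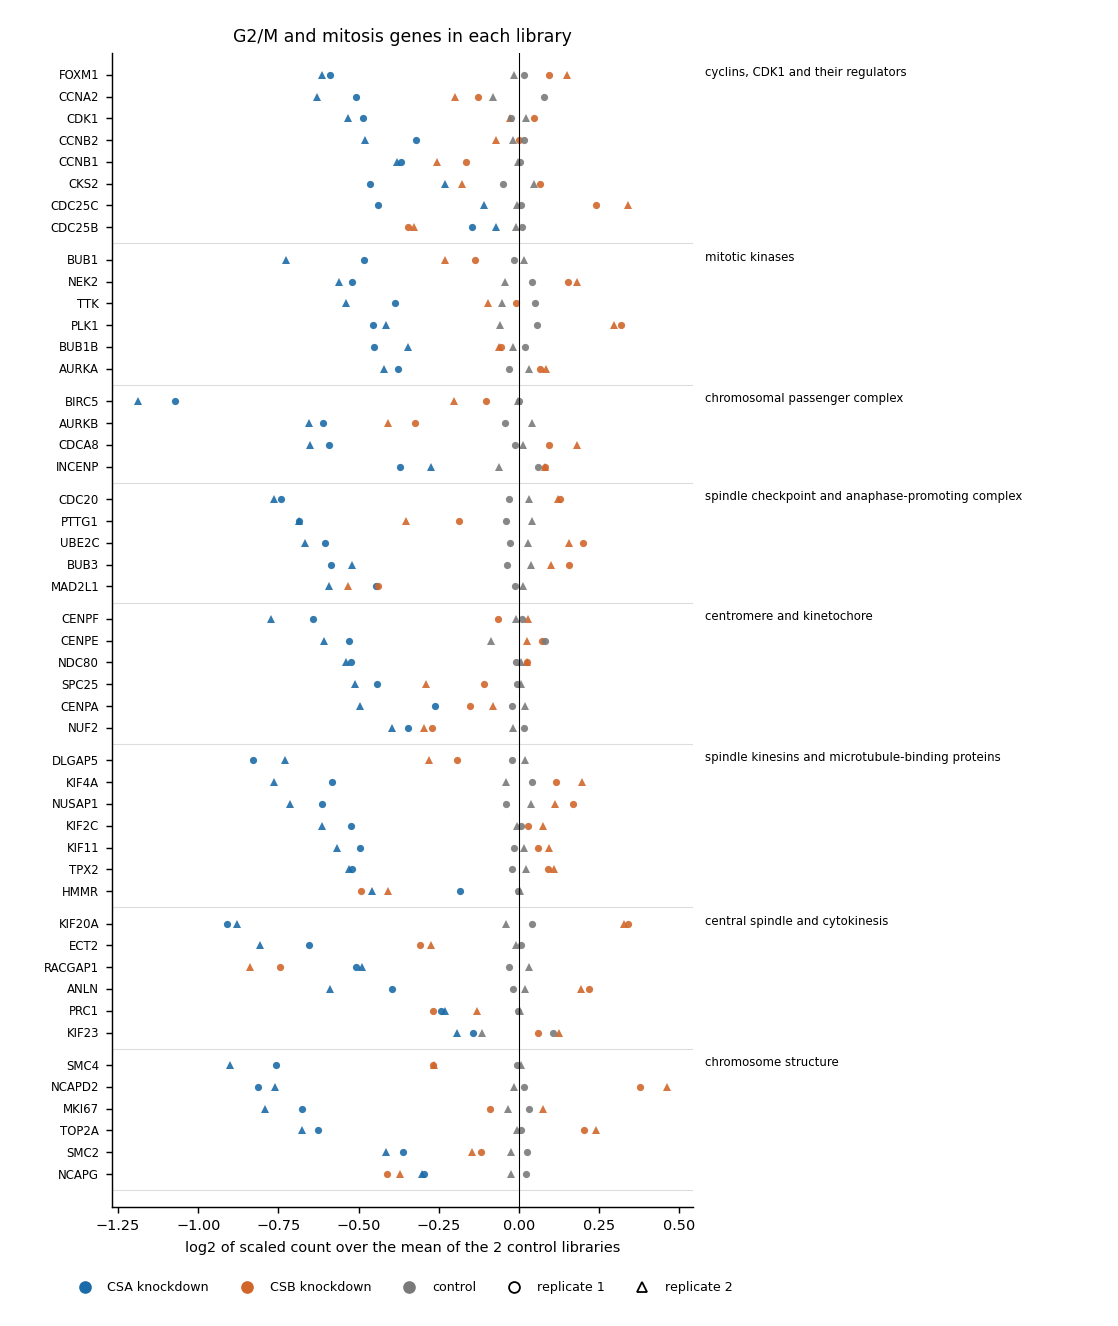
Level of each of the 48 genes in each of the 6 libraries, as the log2 of its scaled count over the mean of the 2 control libraries (horizontal axis), with genes grouped by role down the page. Blue points (CSA knockdown) lie left of the grey control points in all 48 rows, whereas orange points (CSB knockdown) lie left of them for 20 genes, right of them for 20 and among them for 8.

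Some of these genes share their place in the genome with another expressed gene, and no source used here states whether counting used the strand. For 12 of the 48 an overlapping gene had at least 10% of the gene's own level. Overlap was judged on whole gene spans and not on exons, so how many reads such a pair could share is not known. The 12 were ANLN, CCNA2, CDC25C, CENPA, FOXM1, KIF20A, KIF4A, NCAPD2, NCAPG, NUF2, SMC4 and SPC25. For CENPA the overlapping gene, SLC35F6 at 115% of its level, lies on the same strand, so a strand option would not separate that pair. NUF2 is the extreme case, since RGS5, on the opposite strand, stood at 6015% of its level. Among the other 36 genes, 34 fell in the CSA knockdown, 10 fell and 3 rose in the CSB knockdown, and 31 were higher and 2 lower in the CSB knockdown relative to the CSA knockdown.

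Promoter sequence was looked at because the genes fell together in the CSA knockdown. RefSeq windows of 300 bases (250 before and 50 after the gene start, build GRCh38.p14) were at hand for 40 of the 48 genes. The last bases of the window matched a transcript of the gene for 36 of the 40, the others being CDC20, PTTG1, KIF11 and MKI67. The RefSeq start lay within 250 bases of the deposited gene start for 30 genes and farther away for 10, so positions depend on which start is used. They were searched on both strands for the CHR hexamers TTTGAA and TTCGAA and for CCAAT. A CHR hexamer stood in 30 of the 40 windows (75%) and in 16.6% of all 27305 windows, or 10.4% of windows of genes with a mean of at least 250 scaled counts. CCAAT stood in 29 windows (72.5%), in 35.7% of all windows and in 37.0% of those of genes with that mean. Both stood in 23 windows (57.5%), against 6.58% of all windows and 4.59% of those of genes with that mean. The 40 CHR hits had a median position of -28 relative to the start and the 66 CCAAT hits a median of -72, and 2 CHR hits overlapped a CCAAT hit. Presence of a CHR hexamer did not order the genes. Their median log2 fold change in the CSA knockdown was -0.51 for the 30 genes with one and -0.57 for the 10 without, and in the CSB knockdown -0.03 and -0.06. A match describes these letters only. Both elements are known from genes of this kind, so the shares of windows with a motif describe the list. They do not bear on its fall in the CSA knockdown.

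Windows are shown for the 4 genes with the lowest adjusted p in the CSA knockdown among the 23 whose window holds both motifs, so the motifs in them are part of the choice. None of the 4 fell in the CSB knockdown. The sequences are from RefSeq, 5′ to 3′ on the strand of the gene, and capitals mark CHR hexamers and CCAAT boxes read on either strand. The NCAPD2 window lies at chr12:6493852-6494151 on the plus strand, that of CDC20 at chr1:43358731-43359030 on the plus strand, that of TOP2A at chr17:40417847-40418146 on the minus strand and that of CENPF at chr1:214602945-214603244 on the plus strand. NCAPD2 has a CHR hexamer at -145 and CCAAT boxes at 4 places, CDC20 has hexamers at -178 and -65, TOP2A at -194 and -151, and CENPF after the start at 41. The RefSeq start of NCAPD2 lies 746 bases downstream of its deposited gene start, so its window lies wholly inside the deposited gene, whereas the starts of CDC20, TOP2A and CENPF differ by 26, 54 and 0 bases.
NCAPD2: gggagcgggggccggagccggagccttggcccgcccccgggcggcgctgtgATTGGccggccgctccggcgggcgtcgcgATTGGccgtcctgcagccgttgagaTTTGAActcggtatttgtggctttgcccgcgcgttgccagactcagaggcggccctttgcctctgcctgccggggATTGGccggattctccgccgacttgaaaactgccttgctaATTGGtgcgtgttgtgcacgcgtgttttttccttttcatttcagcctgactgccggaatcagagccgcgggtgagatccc
CDC20: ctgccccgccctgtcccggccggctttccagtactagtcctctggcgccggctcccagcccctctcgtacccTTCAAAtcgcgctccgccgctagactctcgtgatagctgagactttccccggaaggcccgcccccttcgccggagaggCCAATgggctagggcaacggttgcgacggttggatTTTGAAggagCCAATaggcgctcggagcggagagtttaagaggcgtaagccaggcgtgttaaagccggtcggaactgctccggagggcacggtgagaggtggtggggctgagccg
TOP2A: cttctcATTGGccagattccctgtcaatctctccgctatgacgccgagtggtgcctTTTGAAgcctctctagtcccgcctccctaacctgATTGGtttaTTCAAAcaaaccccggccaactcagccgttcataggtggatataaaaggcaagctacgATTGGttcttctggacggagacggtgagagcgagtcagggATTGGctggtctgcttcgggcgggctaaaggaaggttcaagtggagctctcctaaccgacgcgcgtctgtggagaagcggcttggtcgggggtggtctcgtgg
CENPF: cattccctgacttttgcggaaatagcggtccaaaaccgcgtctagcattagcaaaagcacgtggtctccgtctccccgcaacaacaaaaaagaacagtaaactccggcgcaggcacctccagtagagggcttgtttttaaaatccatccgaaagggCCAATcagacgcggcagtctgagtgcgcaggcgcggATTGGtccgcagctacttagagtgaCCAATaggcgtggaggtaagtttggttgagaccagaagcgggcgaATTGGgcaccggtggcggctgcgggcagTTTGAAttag

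**Figure D3:**
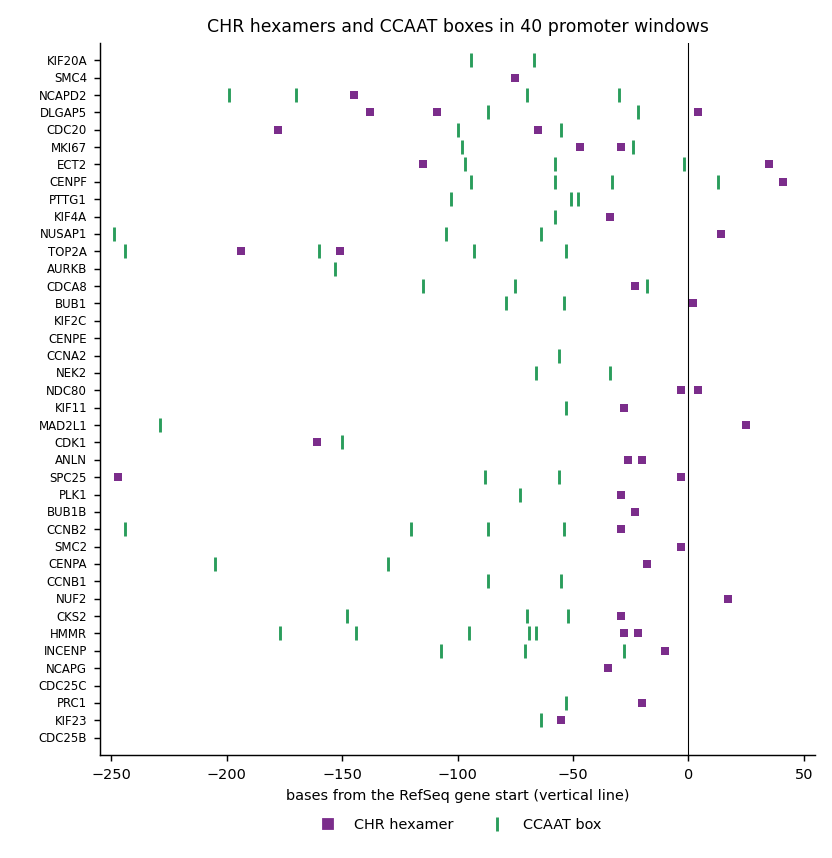
Positions of CHR hexamers (purple squares) and CCAAT boxes (green ticks) in the 40 promoter windows, in bases from the RefSeq gene start (horizontal axis), with genes ordered down the page by their log2 fold change in the CSA knockdown, the lowest at the top. Hits gather within 100 bases of the start, 31 of 40 for CHR and 47 of 66 for CCAAT, and rows with and without a CHR hexamer are found at both ends of the order.

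Among the cyclins, CDK1 and their regulators, 6 of 8 genes fell in the CSA knockdown, and 2 fell in the CSB knockdown. CDK1, the kinase that drives entry into mitosis, had 1793 and 1739 scaled counts in the CSA knockdown, 2597 and 2464 in the CSB knockdown, and 2472 and 2555 in control. The CSA knockdown lay below control in both libraries, and the CSB knockdown and control overlapped. CDK1 fell by 0.51 ± 0.05 on the log2 scale in the CSA knockdown (± SE, limma adjusted p = 2.6e-05), while its difference in the CSB knockdown was 0.01 ± 0.05 (limma adjusted p = 0.93). CCNB1, cyclin B1, the partner of CDK1 in mitosis, had 2011 and 1996 scaled counts in the CSA knockdown, 2319 and 2175 in the CSB knockdown, and 2604 and 2589.9 in control. The 3 groups were apart, with the CSA knockdown lowest and control highest. CCNB1 fell by 0.37 ± 0.05 in the CSA knockdown (limma adjusted p = 0.00027) and fell by 0.21 ± 0.05 in the CSB knockdown (limma adjusted p = 0.011). That second call was lost without either control library or without CSB knockdown replicate 2, with adjusted p up to 0.13. FOXM1, a transcription factor that activates many genes of this programme, had 1586 and 1558 scaled counts in the CSA knockdown, 2549.9 and 2649.9 in the CSB knockdown, and 2413 and 2360.3 in control. Both CSA knockdown libraries were below control and both CSB knockdown libraries above it. FOXM1 fell by 0.60 ± 0.05 in the CSA knockdown (limma adjusted p = 5.2e-06), and its difference of 0.12 ± 0.05 in the CSB knockdown did not pass (limma adjusted p = 0.11). RHNO1 and ITFG2, on the other strand, overlap FOXM1 at 31.6% and 27.2% of its level. RHNO1 also fell in the CSA knockdown (-0.25, limma adjusted p = 0.048), where ITFG2 was not called. In the CSB knockdown ITFG2 rose (0.31) and RHNO1 was not called.

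Of the CDC25 phosphatases, which remove the inhibitory phosphates from CDK1, neither passed in the CSA knockdown, and CDC25B fell in the CSB knockdown. CDC25B had 3511 and 3695 scaled counts in the CSA knockdown, 3054 and 3092 in the CSB knockdown, and 3907 and 3859 in control. Control was highest and the CSB knockdown lowest, with no overlap between the 3 groups. Its difference in the CSA knockdown was -0.11 ± 0.05 (limma adjusted p = 0.16), and it fell by 0.34 ± 0.05 in the CSB knockdown (limma adjusted p = 0.00031; 0.053 without CSB knockdown replicate 1). CDC25B was lower in the CSB than in the CSA knockdown, with a log2 difference of -0.23 ± 0.05 (limma adjusted p = 0.0033; up to 0.073 with a CSB knockdown library left out). CDC25C had 202 and 254 scaled counts in the CSA knockdown, 323 and 346 in the CSB knockdown, and 275 and 272 in control. The CSA knockdown libraries lay below control and the CSB knockdown libraries above, and neither difference from control passed. The log2 difference of CDC25C was -0.27 ± 0.11 in the CSA knockdown (limma adjusted p = 0.12) and 0.29 ± 0.11 in the CSB knockdown (limma adjusted p = 0.082), and FAM53C, on the other strand, stands at 379% of its level. Of the remaining 3 genes, cyclin A2 (CCNA2), cyclin B2 (CCNB2) and the CDK1 subunit CKS2 fell by 0.57, 0.40 and 0.35 in the CSA knockdown. None of the 3 passed in the CSB knockdown, where their values were -0.16, -0.04 and -0.06.

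All 6 mitotic kinases fell in the CSA knockdown, with log2 fold changes between -0.60 and -0.40, and 1 of them, PLK1, rose in the CSB knockdown. PLK1, a Polo kinase that acts from mitotic entry to cytokinesis, had 1162 and 1196 scaled counts in the CSA knockdown, 1986 and 1957 in the CSB knockdown, and 1657 and 1528 in control. The 3 groups were apart, with the CSA knockdown lowest and the CSB knockdown highest. PLK1 fell by 0.43 ± 0.06 in the CSA knockdown (limma adjusted p = 0.00019) and rose by 0.31 ± 0.06 in the CSB knockdown (limma adjusted p = 0.0018). The rise was called under all 7 other scalings but was lost without control replicate 2 or either CSB knockdown library, with adjusted p up to 0.099. AURKA, the Aurora kinase of spindle poles, had 785 and 760.1 scaled counts in the CSA knockdown, 1065 and 1079 in the CSB knockdown, and 997 and 1039.8 in control. Both CSB knockdown libraries lay just above control. AURKA fell by 0.40 ± 0.06 in the CSA knockdown (limma adjusted p = 0.00042), and its CSB knockdown difference was 0.07 ± 0.06 (limma adjusted p = 0.43). Under the 7 other scalings or count models that CSB value ran from -0.013 to 0.034. BUB1, a checkpoint kinase of the kinetochore, had 998 and 844 scaled counts in the CSA knockdown, 1269 and 1189 in the CSB knockdown, and 1382 and 1410.2 in control. The CSB knockdown lay between the CSA knockdown and control. BUB1 fell by 0.60 ± 0.08 in the CSA knockdown (limma adjusted p = 0.00013; up to 0.066 with a control or CSB knockdown library left out), and its CSB knockdown value was -0.18 ± 0.08 (limma adjusted p = 0.11). The kinases NEK2, TTK and BUB1B, which act in centrosome separation and in the checkpoint, fell by 0.54, 0.46 and 0.40 in the CSA knockdown and did not pass in the CSB knockdown, at 0.17, -0.05 and -0.06.

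The chromosomal passenger complex corrects wrong attachments of chromosomes and later helps to complete cytokinesis, and its 4 subunits all fell in the CSA knockdown by unequal amounts. BIRC5, survivin, which brings the complex to centromeres, had 1639.9 and 1514 scaled counts in the CSA knockdown, 3210.5 and 3001 in the CSB knockdown, and 3452 and 3445 in control. The CSA knockdown libraries lay far below all others, and the CSB knockdown libraries lay just under control. BIRC5 (ENSG00000089685, hg38 chr17:78214186-78225636, plus strand) fell by 1.13 ± 0.06 in the CSA knockdown (limma adjusted p = 1.0e-07), to 45.7% of its control level, and was the only one of the 48 with a fall of more than 1 log2 unit. Its value in the CSB knockdown was -0.15 ± 0.06 (limma adjusted p = 0.076), which did not pass with the deposited scaling and passed under the 7 others. AURKB, the Aurora kinase of the complex, had 956 and 927 scaled counts in the CSA knockdown, 1166 and 1099.8 in the CSB knockdown, and 1417 and 1503 in control. The 3 groups were apart, with the CSB knockdown in the middle. AURKB fell by 0.63 ± 0.06 in the CSA knockdown (limma adjusted p = 1.3e-05) and by 0.37 ± 0.06 in the CSB knockdown (limma adjusted p = 0.00074; 0.068 at most with a library left out, where control replicate 2 or CSB knockdown replicate 2 was missing). CDCA8, borealin, a further subunit, had 699 and 670.4 scaled counts in the CSA knockdown, 1124 and 1194 in the CSB knockdown, and 1045 and 1062 in control. The CSB knockdown was highest and the CSA knockdown lowest, without overlap. CDCA8 fell by 0.62 ± 0.06 in the CSA knockdown (limma adjusted p = 1.7e-05). Its CSB knockdown difference was 0.14 ± 0.06 (limma adjusted p = 0.13). INCENP, the scaffold of the complex, had 2083 and 2229 scaled counts in the CSA knockdown, 2853 and 2851 in the CSB knockdown, and 2808 and 2580.2 in control. The CSA knockdown lay below control and the CSB knockdown just above. INCENP fell by 0.32 ± 0.06 in the CSA knockdown (limma adjusted p = 0.0017), the smallest fall of the 4, and that call was lost in 5 of the 6 fits with a library left out, at an adjusted p of up to 0.10. Its CSB knockdown difference was 0.08 ± 0.06 (limma adjusted p = 0.36), and ran from -0.005 to 0.042 under the 7 other scalings. AURKB, BIRC5, CDCA8 and INCENP were all higher in the CSB than in the CSA knockdown, by 0.27, 0.98, 0.76 and 0.40, although the AURKB difference did not pass in DESeq2 (adjusted p = 0.11) and those of AURKB and INCENP did not pass in some fits with a library left out (limma adjusted p up to 0.093 and 0.062).

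The 5 genes of the spindle checkpoint and of anaphase onset fell in the CSA knockdown. In the CSB knockdown 2 fell, MAD2L1 and PTTG1, and 1 rose, UBE2C, whose rise was not called under any other scaling. Among genes with a mean of at least 250 scaled counts, 20.0% were lower and 29.6% higher in the CSB knockdown. CDC20, the activator of the anaphase-promoting complex, had 1278 and 1258 scaled counts in the CSA knockdown, 2335 and 2324 in the CSB knockdown, and 2089 and 2183 in control. The CSA knockdown was far below control and the CSB knockdown slightly above it, with no overlap. CDC20 fell by 0.75 ± 0.05 in the CSA knockdown (limma adjusted p = 9.8e-07). Its CSB knockdown value was 0.13 ± 0.05 (limma adjusted p = 0.11), beside a median of 0.097 over all tested genes. UBE2C, the ubiquitin-conjugating enzyme of the anaphase-promoting complex, had 1803 and 1723 scaled counts in the CSA knockdown, 3143 and 3055 in the CSB knockdown, and 2687 and 2791 in control. The order of the groups was as for CDC20. UBE2C fell by 0.64 ± 0.05 in the CSA knockdown (limma adjusted p = 4.0e-06). It rose by 0.18 ± 0.05 in the CSB knockdown (limma adjusted p = 0.025), a call made under none of the 7 other scalings and lost without either control or either CSB knockdown library, at up to 0.20. MAD2L1, MAD2, which binds CDC20 to hold back anaphase, had 1857 and 1677 scaled counts in the CSA knockdown, 1865 and 1747 in the CSB knockdown, and 2505 and 2551 in control. Here the CSA and CSB knockdown libraries overlapped and all 4 lay below control. MAD2L1 fell by 0.52 ± 0.06 in the CSA knockdown (limma adjusted p = 7.6e-05) and by 0.49 ± 0.06 in the CSB knockdown (limma adjusted p = 0.00010; up to 0.069 with 1 CSB knockdown library left out). The knockdowns differed by 0.03 ± 0.06 (limma adjusted p = 0.74). BUB3, its partner in the checkpoint, had 2928 and 3063 scaled counts in the CSA knockdown, 4892 and 4709 in the CSB knockdown, and 4275 and 4506 in control. The CSB knockdown was highest and the CSA knockdown lowest, without overlap. BUB3 fell by 0.55 ± 0.05 in the CSA knockdown (limma adjusted p = 1.2e-05). Its CSB knockdown difference was 0.13 ± 0.05 (limma adjusted p = 0.097). Securin (PTTG1), the inhibitor of separase, fell by 0.69 in the CSA knockdown and by 0.27 in the CSB knockdown, where the call was lost in all 6 fits with a library left out.

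All 6 centromere and kinetochore genes fell in the CSA knockdown, by 0.37 to 0.71, and NUF2 alone passed in the CSB knockdown, where it fell. CENPF, a large kinetochore protein of late G2, had 7011 and 6415 scaled counts in the CSA knockdown, 10474 and 11167 in the CSB knockdown, and 11023 and 10883 in control. The CSB knockdown and control overlapped. CENPF (ENSG00000117724, hg38 chr1:214603195-214664588, plus strand) fell by 0.71 ± 0.06 in the CSA knockdown (limma adjusted p = 3.2e-06), with -0.02 ± 0.06 in the CSB knockdown (limma adjusted p = 0.86). CENPE, a kinetochore motor, had 751 and 711 scaled counts in the CSA knockdown, 1139.5 and 1104 in the CSB knockdown, and 1148 and 1021 in control. Again the CSB knockdown and control overlapped. CENPE fell by 0.57 ± 0.07 in the CSA knockdown (limma adjusted p = 9.5e-05), with 0.05 ± 0.07 in the CSB knockdown (limma adjusted p = 0.67). NUF2, a subunit of the NDC80 complex, which holds microtubules, had 1429.7 and 1380.0 scaled counts in the CSA knockdown, 1505 and 1479 in the CSB knockdown, and 1837 and 1793 in control. All 4 knockdown libraries lay below control, the CSA knockdown lowest. NUF2 fell by 0.37 ± 0.05 in the CSA knockdown (limma adjusted p = 0.00033) and by 0.28 ± 0.05 in the CSB knockdown (limma adjusted p = 0.0019, up to 0.063 with a control or CSB knockdown library left out), with the overlap with RGS5 given above. The other subunits measured here, NDC80 and SPC25, fell by 0.53 and 0.48 in the CSA knockdown and had 0.03 and -0.20 in the CSB knockdown, neither of which passed. The centromeric histone CENPA fell by 0.38 in the CSA knockdown and did not pass in the CSB knockdown, at -0.12.

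The 7 genes of spindle kinesins and microtubule-binding proteins fell in the CSA knockdown, and 2 of them, DLGAP5 and HMMR, fell in the CSB knockdown. DLGAP5, HURP, which stabilises kinetochore fibres, had 729 and 781 scaled counts in the CSA knockdown, 1133 and 1066 in the CSB knockdown, and 1277 and 1313 in control. The 3 groups were apart, the CSB knockdown in the middle. DLGAP5 fell by 0.78 ± 0.06 in the CSA knockdown (limma adjusted p = 3.4e-06) and by 0.24 ± 0.06 in the CSB knockdown (limma adjusted p = 0.015; up to 0.17 with a control or CSB knockdown library left out). KIF4A, a chromosome-bound kinesin, had 1264 and 1116 scaled counts in the CSA knockdown, 2053 and 2174 in the CSB knockdown, and 1948 and 1841 in control. The CSB knockdown lay above control and the CSA knockdown below. KIF4A fell by 0.67 ± 0.07 in the CSA knockdown (limma adjusted p = 1.9e-05), and its CSB knockdown value was 0.16 ± 0.07 (limma adjusted p = 0.12). PDZD11, which overlaps KIF4A on the other strand at 39.6% of its level, was called higher in the CSA knockdown (0.43), where KIF4A fell. PDZD11 was called lower in the CSB knockdown (-0.81), where KIF4A was not called. HMMR, a microtubule-binding protein of spindle poles, had 934 and 773 scaled counts in the CSA knockdown, 754 and 801 in the CSB knockdown, and 1059 and 1065 in control. The knockdowns overlapped and all 4 of their libraries lay below control. HMMR fell by 0.32 ± 0.08 in the CSA knockdown (limma adjusted p = 0.016), a call lost in 5 of 6 fits with a library left out, at up to 0.24. It fell by 0.45 ± 0.08 in the CSB knockdown (limma adjusted p = 0.0016; up to 0.17 with a control or CSB knockdown library left out). The motors KIF11 and KIF2C and the spindle proteins TPX2 and NUSAP1 fell by 0.53, 0.57, 0.53 and 0.66 in the CSA knockdown. Their CSB knockdown values of 0.08, 0.05, 0.10 and 0.14 did not pass, beside a median of 0.097 over all tested genes, and that of KIF2C changed sign under 6 of the 7 other scalings or count models and that of KIF11 under 1.

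Central spindle and cytokinesis genes spread widely, with 5 of 6 lower in the CSA knockdown and 3 lower and 2 higher in the CSB knockdown. KIF20A, MKLP2, a kinesin that carries the passenger complex to the central spindle, had 931 and 951 scaled counts in the CSA knockdown, 2215 and 2195 in the CSB knockdown, and 1798 and 1699.6 in control. The groups were well apart, with the CSA knockdown lowest and the CSB knockdown highest. KIF20A (ENSG00000112984, hg38 chr5:138178719-138187715, plus strand) fell by 0.89 ± 0.05 in the CSA knockdown (limma adjusted p = 4.0e-07). It rose by 0.33 ± 0.05 in the CSB knockdown (limma adjusted p = 0.00068; up to 0.060 with a CSB knockdown library left out). The CSB knockdown exceeded the CSA knockdown by 1.23 ± 0.05 on the log2 scale (limma adjusted p = 7.9e-09), the largest such difference among the 48. BRD8 and CDC23, on the other strand, overlap KIF20A at 118% and 52.6% of its level. Neither was called in the CSA knockdown. In the CSB knockdown BRD8 rose, as KIF20A did (0.16, limma adjusted p = 0.044), and CDC23 fell (-0.46).

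Centralspindlin, the motor complex that bundles microtubules between the separating chromosomes, is built from KIF23 and RACGAP1, of which RACGAP1 passed in both knockdowns and KIF23 in neither. RACGAP1, the GTPase-activating subunit, had 1561 and 1580.2 scaled counts in the CSA knockdown, 1322 and 1242 in the CSB knockdown, and 2170.3 and 2267 in control. Both knockdowns lay below control without overlap, and here the CSB knockdown was the lower. RACGAP1 (ENSG00000161800, hg38 chr12:49976923-50033136, minus strand) fell by 0.50 ± 0.06 in the CSA knockdown (limma adjusted p = 4.9e-05) and by 0.79 ± 0.06 in the CSB knockdown (limma adjusted p = 1.2e-06). The CSB minus CSA difference was -0.29 ± 0.06 (limma adjusted p = 0.0014; 0.052 without CSB knockdown replicate 2). KIF23, the kinesin subunit, had 1204 and 1163 scaled counts in the CSA knockdown, 1385 and 1451 in the CSB knockdown, and 1432 and 1227 in control. The control libraries were farther apart for KIF23 than for any other of the 48 genes, and the CSB knockdown overlapped them. KIF23 had -0.16 ± 0.07 in the CSA knockdown (limma adjusted p = 0.15) and 0.10 ± 0.07 in the CSB knockdown (limma adjusted p = 0.40), and neither passed. ECT2, the exchange factor that RACGAP1 recruits, fell by 0.73 in the CSA knockdown and by 0.29 in the CSB knockdown. PRC1, the microtubule bundler, fell by 0.24 and by 0.20. Neither CSB call held in every fit with a library left out. The CSB value then ran from -0.31 to -0.27 for ECT2 and from -0.27 to -0.13 for PRC1. ANLN, which scaffolds the contractile ring, fell by 0.49 in the CSA knockdown and rose by 0.21 in the CSB knockdown, a rise called under 1 of the 7 other scalings.

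Chromosome structure genes all fell in the CSA knockdown, and in the CSB knockdown 2 fell and 2 rose. TOP2A, topoisomerase II alpha, which untangles sister chromatids, had 8314 and 8029.8 scaled counts in the CSA knockdown, 14776 and 15159.7 in the CSB knockdown, and 12879.6 and 12775 in control. The CSA knockdown was lowest and the CSB knockdown highest, without overlap. TOP2A fell by 0.65 ± 0.05 in the CSA knockdown (limma adjusted p = 1.7e-06) and rose by 0.22 ± 0.05 in the CSB knockdown (limma adjusted p = 0.0044; up to 0.11 with a control or CSB knockdown library left out). MKI67, Ki-67, a coat protein of mitotic chromosomes used to mark dividing cells, had 5910.5 and 5447 scaled counts in the CSA knockdown, 8861 and 9953 in the CSB knockdown, and 9653 and 9225 in control. The CSB knockdown libraries lay one below and one above the control libraries. MKI67 fell by 0.73 ± 0.06 in the CSA knockdown (limma adjusted p = 6.4e-06), with -0.01 ± 0.06 in the CSB knockdown (limma adjusted p = 0.97).

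Condensin, the ring complex that compacts mitotic chromosomes, had subunits that moved apart in the CSB knockdown. NCAPD2, a regulatory subunit of condensin I, had 2692 and 2792 scaled counts in the CSA knockdown, 6147 and 6509 in the CSB knockdown, and 4778 and 4678 in control. The CSA knockdown libraries were lowest and the CSB knockdown libraries highest, far from control on either side. NCAPD2 (ENSG00000010292, hg38 chr12:6493356-6531955, plus strand) fell by 0.79 ± 0.05 in the CSA knockdown (limma adjusted p = 6.1e-07) and rose by 0.42 ± 0.05 in the CSB knockdown (limma adjusted p = 7.2e-05). MRPL51, on the other strand, overlaps NCAPD2 at 44.6% of its level and was not called in either knockdown. SMC4, a core ATPase of condensin, had 2473 and 2239 scaled counts in the CSA knockdown, 3476 and 3477 in the CSB knockdown, and 4165 and 4198 in control. The CSB knockdown lay between the CSA knockdown and control. SMC4 fell by 0.83 ± 0.06 in the CSA knockdown (limma adjusted p = 8.1e-07) and by 0.27 ± 0.06 in the CSB knockdown (limma adjusted p = 0.0037; up to 0.14 with a control or CSB knockdown library left out). NCAPG, another regulatory subunit of condensin I, had 1302 and 1296 scaled counts in the CSA knockdown, 1203 and 1236 in the CSB knockdown, and 1625 and 1572 in control. All 4 knockdown libraries lay below control, and the CSB knockdown was the lower. NCAPG fell by 0.30 ± 0.05 in the CSA knockdown (limma adjusted p = 0.0017; 0.069 without control replicate 1) and by 0.39 ± 0.05 in the CSB knockdown (limma adjusted p = 0.00021). SMC2, the partner ATPase of SMC4, fell by 0.39 in the CSA knockdown and did not pass in the CSB knockdown, at -0.13. NCAPD2 and NCAPG, partners in condensin I, thus stood at 134% and 76.3% of control in the CSB knockdown.

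**Figure D4:**
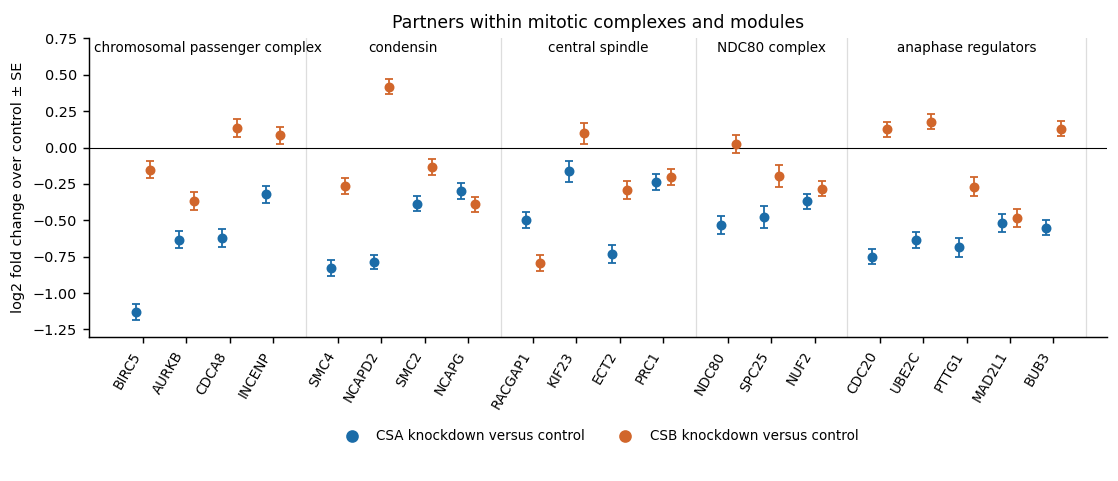
Log2 fold change over control with its standard error (vertical axis) for subunits of the chromosomal passenger complex, condensin, the central spindle, the NDC80 complex and regulators of anaphase, in the CSA knockdown (blue) and the CSB knockdown (orange). Blue points all lie below 0, from -1.13 for BIRC5 to -0.16 for KIF23, and orange points of one complex lie on both sides of 0, as for NCAPD2 (0.42) and NCAPG (-0.39).

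Genes around this programme were counted from 12 further lists of 184 genes, 183 of them tested, as CCND2 did not pass the filter on low values. Over all 12 lists, 94 genes fell and 3 rose in the CSA knockdown, and 62 fell and 22 rose in the CSB knockdown, beside the shares of all genes given above. These counts rest on single libraries: with 1 left out, 36 to 67 fell and 1 or 2 rose in the CSA knockdown, and 16 to 57 fell and 4 to 19 rose in the CSB knockdown. The CSA falls numbered 36 without control replicate 1 and 42 without control replicate 2, and 56 without either CSB knockdown library. The CSB falls numbered 19 without either control library, 16 without CSB knockdown replicate 1 and 21 without CSB knockdown replicate 2. Of the other mitotic kinesins, 7 of 7 fell in the CSA knockdown, among them KIF15 at -0.79 and KIFC1 at -0.55, and in the CSB knockdown KIF18B rose (0.28). The other condensin subunits fell in the CSA knockdown, 4 of 4, with NCAPD3 at -0.43 and NCAPH at -0.41. NCAPH fell (-0.24) and NCAPH2 rose (0.21) in the CSB knockdown. Of 34 other kinetochore and centromere proteins, 12 fell in the CSA knockdown, led by SKA2 at -1.18 and KNL1 at -0.67. Of the same 34, 9 fell in the CSB knockdown, led by NSL1 at -0.91 and MAD2L1BP at -0.82, and 2 rose, CENPP at 0.38 and CENPC at 0.26. Of 15 cohesin and separase genes, 10 fell and 1 rose in the CSA knockdown, with ESCO2 at -0.76, CDCA5 at -0.67 and the loader MAU2 at 0.21. Cohesin genes lower in the CSB knockdown numbered 4, led by PDS5A at -0.39 and PDS5B at -0.34, and 2 rose, MAU2 at 0.65 and separase (ESPL1) at 0.18. Of 6 other cytokinesis genes, 4 fell in the CSA knockdown, with CEP55 at -0.64 and FAM83D at -0.59. CHMP4B (-0.41) and CEP55 (-0.23) fell and FAM83D (0.25) and ARHGEF2 (0.16) rose in the CSB knockdown. Small rises under the CSB hairpin depended on the scaling: those of ESPL1 and ARHGEF2 were called under 0 of the 7 other scalings or count models, and those of CENPC, FAM83D and NCAPH2 under 1.

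The next counts stand beside 10.4% of all tested genes lower in the CSA knockdown, or 21.8% of those with a mean of at least 250 scaled counts. For the CSB knockdown the latter genes had 20.0% lower and 29.6% higher. The CSA falls of the anaphase-promoting complex list and of the CDK1 entry list lay between those CSA shares. Of 17 subunits and inhibitors of the anaphase-promoting complex, 3 fell in the CSA knockdown, led by the inhibitor FBXO5 at -0.52 and the ubiquitin-conjugating enzyme UBE2S at -0.44. Under the CSB hairpin 5 fell, led by CDC23 at -0.46 and ANAPC1 at -0.29, and 3 rose, led by ANAPC13 at 0.34 and ANAPC2 at 0.31. Of 13 centrosome and centriole proteins, 5 fell in the CSA knockdown, led by ASPM at -0.54 and STIL at -0.32, and 1 fell in the CSB knockdown, PLK4 at -0.20. Of 13 genes of the CDK1 entry switch and of mitotic exit phosphatases, 2 fell in the CSA knockdown, GTSE1 at -0.44 and the inhibitory kinase PKMYT1 at -0.40. Of the same 13, 5 fell in the CSB knockdown, led by ARPP19 at -0.68 and ENSA at -0.62, which inhibit a phosphatase that opposes CDK1, and 1 rose, GTSE1 at 0.23. Among 19 DREAM, MuvB and RB-E2F regulators, 8 fell and 1 rose in the CSA knockdown, with the repressors E2F7 at -0.83 and E2F8 at -0.77 and the pocket protein RBL2 at 0.22. Regulators called in the CSB knockdown were 3 lower and 2 higher, with TFDP1 at -0.46 and MYBL2 at -0.31 and LIN52 at 0.41 and TFDP2 at 0.26. Of 9 tested G1 cyclins and kinases, 4 fell and 1 rose in the CSA knockdown, with CDK2 at -0.83, CCND1 at -0.64 and CCNE1 at 0.51, and 4 fell and 1 rose in the CSB knockdown, with CDK2 at -0.80, CDK4 at -0.69 and CCND1 at 0.18. The CSB rises of CCND1 and GTSE1 were called under 2 and 5 of the 7 other scalings or count models.

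Of 8 genes listed by symbol as CDK inhibitors, 3 fell and 0 rose in the CSA knockdown and 5 rose and 0 fell in the CSB knockdown. The 3 that fell were CDKN2C, CDKN1A and CDKN3 (-0.32), and the CDKN3 call was made under 6 of the 7 other scalings or count models. Of all tested genes, 10.4% were lower in the CSA knockdown and 14.8% higher in the CSB knockdown. Of those with a mean of at least 250 scaled counts, a level that only CDKN2A and CDKN2B of the 8 did not reach, these shares were 21.8% and 29.6%. CDKN1A and CDKN2C were called in both comparisons, in opposite directions, and the other calls were made in 1 comparison each. The 7 other scalings or count models gave 2 or 3 lower in the CSA knockdown and 5 higher in the CSB knockdown, and leaving out 1 library gave 2 or 3 lower and 2 to 4 higher. The p53 target CDKN1A (p21) had 2548 and 2706 scaled counts in the CSA knockdown, 6317 and 6186 in the CSB knockdown, and 3903 and 3929.7 in control. Its groups did not overlap, with the CSA knockdown lowest and the CSB knockdown highest. CDKN1A fell by 0.58 ± 0.05 in the CSA knockdown (limma adjusted p = 6.3e-06) and rose by 0.67 ± 0.05 in the CSB knockdown (limma adjusted p = 1.8e-06). CDKN2C (p18) moved likewise, at -0.67 in the CSA knockdown and 0.80 in the CSB knockdown, and CDKN1B (p27) rose by 0.73 in the CSB knockdown and did not pass in the CSA knockdown, at 0.03. The CSA knockdown had lower p21 RNA together with lower mitotic RNAs, and the CSB knockdown higher p21 RNA with mitotic RNAs on both sides of control.

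Most genes of DNA replication and S phase, the stage before G2, fell in both knockdowns. Of 38 tested, 32 fell in the CSA knockdown, with a median log2 fold change of -0.34, led by POLE2 at -0.62 and MCM4 at -0.59. In the CSB knockdown 28 fell and 2 rose, with a median of -0.28, led by MCM6 at -0.78 and CDC6 at -0.69, while CDT1 (0.54) and RRM2 (0.22) rose. Of all tested genes, 10.4% were lower in the CSA knockdown and 8.86% in the CSB knockdown. Of those with a mean of at least 250 scaled counts, the shares were 21.8% and 20.0%. Between the knockdowns, 10 of the 38 were higher and 3 lower in the CSB knockdown relative to the CSA knockdown, with a median of 0.05. Of all tested genes, 18.1% were higher and 11.3% lower there, and of those with a mean of at least 250 scaled counts 33.2% and 23.1%. The 10 of 38 thus lay between the shares called higher. Of the 48 mitotic genes, 41 were higher and 2 lower, with a median of 0.53. Under the 7 other scalings or count models, 28 to 32 of the 38 fell in the CSA knockdown and 28 to 31 in the CSB knockdown, and 6 to 10 were higher and 6 to 9 lower between the knockdowns. Leaving out 1 library gave 10 to 21 lower in the CSA knockdown, with 10 without control replicate 1 and 12 without control replicate 2, and 7 to 24 lower in the CSB knockdown, with 7 to 9 where a control or CSB knockdown library was missing.

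**Figure D5:**
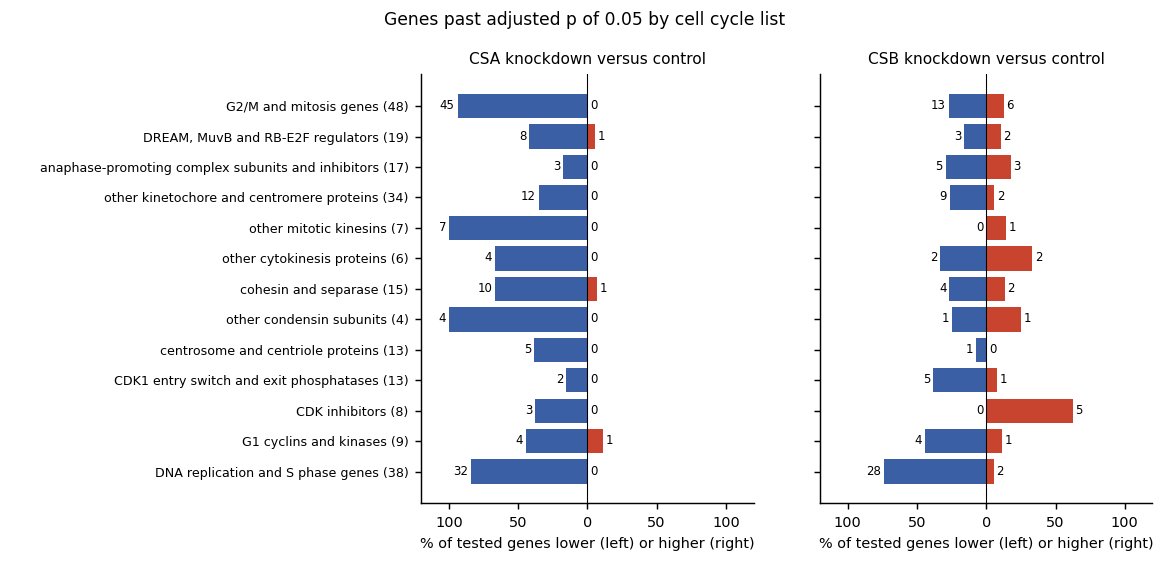
Percentage of the tested genes of each list called lower (blue, to the left) or higher (red, to the right) at a limma adjusted p below 0.05 in the CSA knockdown and the CSB knockdown against control, with the number of genes at each bar and the number tested beside each list name. In the CSA knockdown 45 of 48 mitotic genes and 32 of 38 replication genes were lower, and in the CSB knockdown 13 and 28 were lower while 5 of 8 CDK inhibitors were higher.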

How the data were processed

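Reads had been checked with FastQC and aligned to hg38 with HISAT2 2.0.4, per the submitters' processing notes. How reads were counted, with which annotation and strand option, and how values were normalized is not stated in any source used here. Although the value columns read FPKM per the file headers, 100% of the values in each library were whole multiples of one step (tolerance 0.01 of a read). The deposited signal thus holds read counts over one size factor per library, called the scaled count. Genes absent from a table were taken as 0, and reads, 19368272 to 26758162 per library, were recovered from the steps.

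limma 3.58.1 (R 4.3.3) with a mean-variance trend was fitted to log2(scaled count + 1) of the 28388 genes with a mean of at least 1 in at least 1 group. The fit of 3 groups used all 6 libraries and had 3 residual degrees of freedom, and Benjamini-Hochberg adjustment ran over all genes tested with a threshold of 0.05. Fold changes are on the log2(scaled count + 1) scale, and ± is limma's standard error. edgeR 4.0.16, DESeq2 1.42.0 and limma-voom on recovered reads, TMM and read-total rescaling, removal of a length trend, other pseudocounts and filters, and fits without each library were the alternatives, and the models were tested on simulated data. Values in every library are given for the genes with the lowest and highest fold change of each role in each comparison with control and for 12 genes fixed by name. Positions come from the deposited tables, and promoters from RefSeq. Members, lists and tests were chosen with earlier results of these data known.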

Additional observations from a re-analysis of the deposited data

How the results depend on the processing

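Counts and medians of the 48 genes were recomputed under 20 alternatives. In the CSA knockdown versus control, the median log2 fold change lay between -0.56 and -0.51 with a library left out. In the CSB knockdown versus control, the counts with a library left out lay between 4 and 11 lower and between 1 and 7 higher, and the median between -0.030 and 0.014. That median was -0.082 in edgeR with TMM, -0.051 in edgeR with upper-quartile scaling, -0.098 in DESeq2, -0.080 in limma-voom, -0.085 after TMM rescaling, -0.073 after scaling to read totals and -0.083 without the length trend. For the CSB versus the CSA knockdown, edgeR with TMM called 4 lower, and leaving out a library gave 0 to 3 lower, 27 to 37 higher and a median of 0.49 to 0.53. The median was 0.44 in edgeR with TMM, 0.47 with upper-quartile scaling, 0.44 in DESeq2, 0.44 in limma-voom, 0.44 after TMM rescaling, 0.47 after scaling to read totals and 0.46 without the length trend. The cause was not tested. Of 1800 results for single genes, 1631 kept their direction and side of the threshold, 104 no longer passed, 29 newly passed and 36 uncalled values changed sign; no called value changed sign. Of 1440 counts for the other lists, 327 moved by more than 1.5 times, 185 of them with a library left out (where 247 did not). No pairing by replicate number was seen, since deviations of same-numbered libraries correlated at -0.040, -0.032 and -0.032 over 13397 genes. These values cannot show whether same-numbered libraries were prepared together. A replicate block left the counts at 45 lower and 0 higher for CSA, 13 and 6 for CSB, and 2 and 41 for CSB versus CSA. With 2 libraries per group, and 1 where one was left out, the lone library is assumed to vary like the others.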
